A study of Mus musculus with 10 samples.

Results

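The genes described here copy the genome and carry cells from G1 into S phase. The list holds 45 mouse genes, of which 44 had a probe set annotated to that gene alone and Chaf1a was not analysed here. They are 44 of the 18193 genes with such a probe set on the array. Each gene was represented by the probe set with the highest mean signal over the 10 arrays, and all 44 passed the filter on low signal that left 12160 genes for testing. Expression was measured on 10 Affymetrix Mouse Genome 430 2.0 arrays hybridised with RNA from Lewis lung carcinoma (LLC) cells, a lung tumour line of C57BL/6 mice. One line (TDAG8-LLC, here the TDAG8 line) stably expressed TDAG8, a proton-sensing G protein-coupled receptor whose gene symbol is Gpr65, and the other (control LLC, here the control line) stably carried the vector. Both lines went without serum for 12 h in DMEM with 0.1% BSA (pH 7.4), and RNA was taken then, before treatment, or after 4 or 12 h more in that medium adjusted to pH 7.4 or 6.4, so all 10 arrays come from serum-starved cells. There was 1 array for each line and condition, and each array received RNA mixed from 4 separate cultures. The pooling removed the spread between cultures, and no group had a replicate array. Each line is 1 stable transfectant population as far as the labels say. The Gpr65 probe set read 0.3 to 5.3 on the arrays of both lines, below the filter, and so gave no check of the line labels.

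DNA replication is prepared in G1, when the origin recognition complex, Cdc6 and Cdt1 load the MCM helicase onto DNA, a step called licensing. In S phase the kinase Cdc7 with its activator Dbf4, together with cyclin-dependent kinases, turns the loaded helicase on with the help of Mcm10, Cdc45 and the GINS complex, and polymerases, the sliding clamp and its loader then copy the strands. Many of these genes are targets of E2F transcription factors, which are held in check by the retinoblastoma family until growth factors act through D-type and E-type cyclins.

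Of the 44 genes, 35 had promoter sequence in the RefSeq table used (mouse build GRCm38.p6). The 250 bases before each annotated start were searched on both strands for 4 spellings of the E2F core, TTTCCCGC, TTTGGCGC, TTTGCCGC and TTTCGCGC, some of which can overlap on opposite strands. At least 1 match was found for 9 of the 35 genes (25.7%), against 583 of all 27025 genes in the table (2.16%). The other gene lists read below held a match nearly as often, in 17 of 84 genes (20.2%), so the letters are not particular to this list. The 9 were Orc1, Cdc6, Mcm5, Mcm6, Mcm7, Gins3, Pola1, Rfc3 and Uhrf1. The 5 letters CCAAT, a box that NF-Y binds, were present for 20 of the 35 genes (57.1%) against 37.5% of all genes. In the other lists the CCAAT share was 56%. The cell cycle homology region letters TTTGAA, which mark many late cell cycle promoters, were present for 14.3% against 18.3% of all genes. In the other lists their share was 23.8%. A match describes the letters alone, not a site. The windows of 5 genes that hold E2F letters are shown 5′ to 3′ on the strand of the gene, with those letters on either strand in capitals, since these genes were among those higher at pH 6.4 than at pH 7.4 after 12 h.
Orc1, chr4:108579204-108579453, + strand: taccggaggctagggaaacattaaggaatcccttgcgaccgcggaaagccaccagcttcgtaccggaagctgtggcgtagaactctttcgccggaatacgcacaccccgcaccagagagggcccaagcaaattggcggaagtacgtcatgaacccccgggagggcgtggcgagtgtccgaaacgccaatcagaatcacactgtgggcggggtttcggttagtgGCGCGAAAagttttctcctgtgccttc
Cdc6, chr11:98907901-98908150, + strand: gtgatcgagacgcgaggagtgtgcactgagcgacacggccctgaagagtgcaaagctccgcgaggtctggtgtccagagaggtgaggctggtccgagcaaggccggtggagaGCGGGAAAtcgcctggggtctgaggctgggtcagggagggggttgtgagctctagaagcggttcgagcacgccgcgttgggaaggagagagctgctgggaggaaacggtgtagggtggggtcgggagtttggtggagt
Mcm5, chr8:75109259-75109508, + strand: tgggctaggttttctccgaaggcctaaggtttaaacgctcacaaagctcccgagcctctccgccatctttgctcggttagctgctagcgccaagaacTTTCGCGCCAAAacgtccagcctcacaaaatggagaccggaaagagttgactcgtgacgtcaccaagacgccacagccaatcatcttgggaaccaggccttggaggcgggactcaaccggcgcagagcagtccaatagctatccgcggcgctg
Mcm6, chr1:128359706-128359955, - strand: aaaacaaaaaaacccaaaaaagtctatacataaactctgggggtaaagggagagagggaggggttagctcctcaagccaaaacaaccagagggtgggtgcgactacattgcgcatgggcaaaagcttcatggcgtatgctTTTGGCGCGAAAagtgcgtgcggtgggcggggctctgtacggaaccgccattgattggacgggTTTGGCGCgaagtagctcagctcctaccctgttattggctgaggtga
Rfc3, chr5:151651209-151651458, - strand: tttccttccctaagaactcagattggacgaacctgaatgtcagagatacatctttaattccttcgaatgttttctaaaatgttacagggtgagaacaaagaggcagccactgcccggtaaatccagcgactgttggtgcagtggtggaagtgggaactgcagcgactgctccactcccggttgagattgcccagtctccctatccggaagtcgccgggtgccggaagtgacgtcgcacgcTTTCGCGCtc

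The matches start 27 bases before the annotated start of Orc1, 138 before that of Cdc6 and 10 before that of Rfc3. Mcm5 holds a pair that overlap, starting 153 and 149 bases before the start, and Mcm6 holds 3, starting at 110, 106 and 47 bases. Of the 21 genes that were higher at pH 6.4 after 12 h, 18 were in the promoter table and 6 of these held E2F letters, and of the 21 genes that did not pass that test, 15 were in the table and 3 held them.

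As a whole the list was lower after 12 h at pH 7.4 than before treatment, with medians nearer 0 at pH 6.4. Relative to the same line before treatment, the median of the 44 genes at pH 7.4 was -0.14 after 4 h and -0.52 after 12 h in the control line, and -0.09 and -0.56 in the TDAG8 line. These and all differences given here are on the scale of log2(quantile-normalised signal + 2.4). After 12 h at pH 7.4 the value of each of the 44 genes was below that before treatment in both lines, where 33.2% of all genes tested were lower in both. At pH 6.4 the median was 0.04 after 4 h and -0.09 after 12 h in the control line and 0.04 and -0.05 in the TDAG8 line. The medians over all 12160 genes lay between -0.02 and 0.02 in each of these 8 differences.

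**Figure D1:**
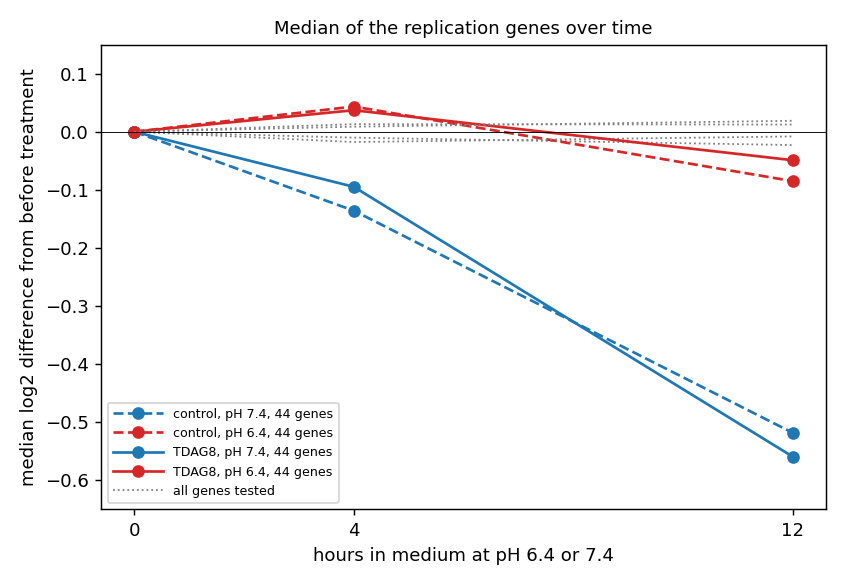
Median log2 difference from the same line before treatment over the 44 replication and G1/S genes (y axis) against hours in medium (x axis), with the control line dashed, the TDAG8 line solid, pH 7.4 in blue and pH 6.4 in red. Dotted grey lines are the medians of all 12160 genes tested. The pH 7.4 lines end at -0.52 and -0.56 after 12 h, and the pH 6.4 lines at -0.09 and -0.05.

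Gene by gene, the differences at pH 7.4 did not pass the test. In a limma fit over all 10 arrays with line as an additive term, in which the 2 lines stand in for replicates of a condition (4 residual degrees of freedom), 12 h at pH 7.4 against before treatment gave 0 of 44 genes at an adjusted p under 0.05. Over all genes 0.0576% passed. The lowest adjusted p in the list was 0.0848, and 40 of the 44 genes had an unadjusted p under 0.05 in the lower direction. With a filter at the 60th percentile 21 genes passed, and with eBayes trend and robust moderation 29. The shares of all genes for these counts are not given here, so the counts alone do not set the list apart. The median of the list was -0.55, with a range from -0.86 to -0.26, against -0.00 over all genes. The 4 largest differences were those of Gins3 (-0.86, SE 0.11), Fen1 (-0.86, SE 0.12), Gins1 (-0.81, SE 0.14) and Lig1 (-0.79, SE 0.09). After 4 h at pH 7.4 limma called 0 genes of the list, with 0 at an unadjusted p under 0.05 and a background of 0% called. The median there was -0.11, and 39 of the 44 estimates were below 0.

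Set against pH 7.4 at the same hour, much of the licensing and fork machinery was higher at pH 6.4 after 12 h. In the same fit 21 genes were higher and 2 lower of the 44 at pH 6.4 after 12 h (adjusted p under 0.05, limma with Benjamini-Hochberg adjustment over 12160 genes). This comparison called 34.6% of all genes tested, 17% higher and 17.7% lower, so the list's share of higher genes was above the background and its share of lower genes below it. The median difference of the list was 0.41 against 0.02 over all genes, 0.41 in each line taken alone. The pH 7.4 arrays at 12 h are shared between this comparison and the one with before treatment, so the 2 are not independent. Leaving out the TDAG8 array at pH 7.4 and 12 h gave 12 calls in the list, and leaving out the control array of that condition gave 14. With arrays centred on their medians in place of quantile normalisation the median of all genes moved to 0.10, the list's median to 0.54, and the calls to 25 higher and 1 lower. Of the 23 calls, 11 held under every alternative setting run: Orc1, Orc6, Cdc6, Mcm4, Mcm5, Cdc7, Fen1, Lig1, Rpa2, Rfc3 and Rfc5. The other 12 lost the call under at least 1: Cdt1, Mcm2, Mcm6, Mcm7, Cdc45, Gins1, Gins2, Mcm10, Pola2, Pole2, Rrm1 and Ccne1.

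Markers of other cell types were read beside these results. The summed signal of the 5 fibroblast markers (Col1a1, Col1a2, Dcn, Pdgfra and Pdgfrb) moved with pH. It ran from 2096.9 to 3563.3 on the 4 arrays at pH 7.4 and from 1019.8 to 1299.4 on the 4 at pH 6.4. All but Col1a1 were above the filter. Nearly all of this sum was Dcn, Pdgfra and Pdgfrb, each lower at pH 6.4 in both lines at both times. The collagens were low, with Col1a1 at most 8.1 and Col1a2 at most 20. Col1a2 was higher at pH 6.4 after 4 h (20 against 12.4 in the TDAG8 line, 19 against 6.7 in the control line). After 12 h Col1a2 was lower there (9.5 against 11.1 and 13.7 against 15.3, lines in the same order). The sum of the 6 epithelial markers was 1298.1 to 2095.4 in the control line and 2103 to 2884.4 in the TDAG8 line. Epcam, Krt8, Krt18 and Ocln were above the filter. Most of the sum was Krt8, with quantile-normalised signals of 1236.27 to 1953.05 in the control line and 2051.88 to 2439.24 in the TDAG8 line. Krt18 was also apart between the lines, while the ranges of Epcam (24.07 to 42.52 and 32.58 to 38.89) and Ocln overlapped. Sums for lung epithelial (18.4 to 43.9), leukocyte (18.8 to 43.6) and endothelial markers (15.7 to 33) were low on every array. Of these markers Sftpb, Cd68, Lyz2, Cdh5 and Kdr passed the filter and the others, Nkx2-1, Sftpc and Scgb1a1 among them, did not. The part of these shifts in the replication genes was not tested. In these bulk samples fewer cells in S phase and less RNA of each gene per cell cannot be told apart.

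Licensing genes were higher at pH 6.4 after 12 h, and less so at 4 h, where Cdt1 (-0.06) and Mcm7 (-0.03) were below 0. All 10 had a positive pH difference at 12 h in both lines, as did 39% of all genes tested, and their median was 0.69. Of the 10, 9 were called higher, against 17% of all genes (not Mcm3, 0.32, adjusted p = 0.0601 in the limma fit). Orc1, the large subunit of the origin recognition complex, had signals in the control line of 148.8 before treatment, 137.4 and 107.2 after 4 and 12 h at pH 7.4, and 127.8 and 249.6 after 4 and 12 h at pH 6.4. Its signals in the TDAG8 line were 137, 117.1, 88.6, 147 and 234.5 in the same order. The pH 6.4 arrays at 12 h held the highest Orc1 signal in each line and the pH 7.4 arrays at 12 h the lowest. Orc1 was 1.31 higher at pH 6.4 after 12 h (SE 0.13, 2.48-fold, adjusted p = 0.00148). Orc6, the smallest subunit of the same complex, was 1.09 higher (SE 0.10, 2.12-fold, adjusted p = 0.0011), with signals of 770.8 against 364.3 in the control line and 762.7 against 351.5 in the TDAG8 line.

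Cdc6, the ATPase that joins the origin recognition complex to load the helicase, was the licensing gene called at both times. Its control line signals were 283.6 before treatment, 246.8 and 160.8 after 4 and 12 h at pH 7.4, and 401.9 and 407.4 after 4 and 12 h at pH 6.4, and its TDAG8 line signals were 233, 200.4, 141.1, 368.7 and 324.9. Every pH 6.4 array was above every other array, those before treatment included. Over all genes tested, the 4 values at pH 6.4 lay above the 4 at pH 7.4 in 12.6%. The Cdc6 difference was 0.85 at 4 h (SE 0.10, adjusted p = 0.00468) and 1.26 at 12 h (SE 0.10, adjusted p = 0.000889), both from the limma fit, and the change between the times, 0.41, did not pass (adjusted p = 0.102). Cdt1, the partner of Cdc6 in loading, was 0.73 higher at 12 h (SE 0.10), with 1816.9 against 1024.8 in the control line and 1318.5 against 814.5 in the TDAG8 line.

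Of the 6 subunits of the MCM helicase, 5 were called higher at 12 h, against 17% of all genes. Mcm4 was 0.87 higher at pH 6.4 after 12 h (SE 0.09), Mcm5 0.66 (SE 0.10), Mcm6 0.53 (SE 0.09), Mcm2 0.37 (SE 0.10) and Mcm7 0.36 (SE 0.11). Mcm4 read 2088.6 at pH 6.4 and 1065.7 at pH 7.4 in the control line, and 1744.5 and 962.5 in the TDAG8 line. At 4 h none of the 6 passed the test, and their estimates lay between -0.03 and 0.26. Some other usable probe sets of these genes lay above that range, among them 1 of Mcm4 (0.46, mean signal 1078.37). Against before treatment, Mcm2, Mcm3, Mcm4, Mcm5, Mcm6 and Mcm7 were not called at either hour of pH 6.4, in a contrast of the same fit that was added after seeing the data.

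**Figure D2:**
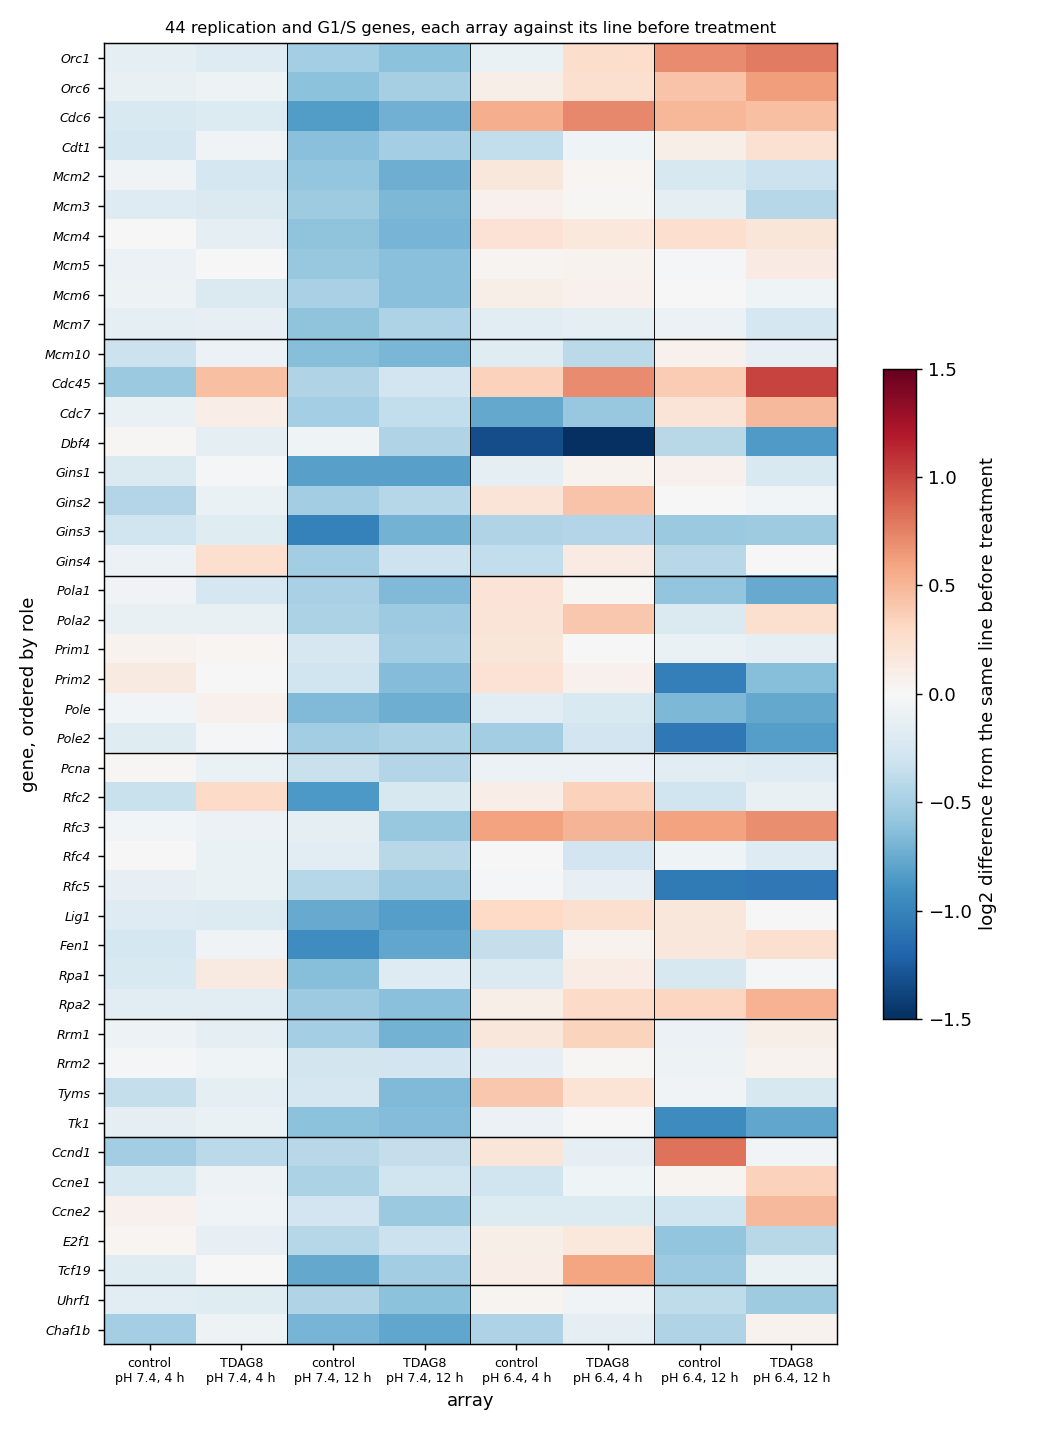
Log2 difference of each of the 44 genes (rows, grouped by role) from the same line before treatment on the 8 treated arrays (columns), with blue lower, red higher and white no difference. The columns for 12 h at pH 7.4 are blue for all 44 genes in both lines, and at pH 6.4 Orc1, Cdc6 and Rfc3 are red at 12 h while Rfc5, Pole2, Prim2 and Tk1 are blue.

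Among all genes 17% were called higher at pH 6.4 after 12 h and 17.7% lower. Of the 8 genes that fire origins and activate the helicase, 5 were called higher there and none was called lower. They were Cdc45, which completes the active helicase (1.07, SE 0.24), Cdc7 (0.77, SE 0.10), the GINS subunits Gins1 (0.73, SE 0.14) and Gins2 (0.45, SE 0.12), and Mcm10 (0.63, SE 0.13). The signals of Cdc45 in the control line were 194.5, 134.3, 145.2, 232.2 and 259.1 before treatment, at pH 7.4 after 4 and 12 h and at pH 6.4 after 4 and 12 h. In the TDAG8 line they were 137.5, 182.9, 110.3, 206.1 and 278. The 2 arrays at pH 6.4 and 12 h were the highest of the 10. Gins3 and Gins4, the other GINS subunits, had differences of 0.32 (SE 0.11) and 0.21 (SE 0.14) that did not pass.

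After 4 h, 16 genes of the list had estimates of pH 6.4 minus pH 7.4 below 0. The kinase Cdc7 and its regulatory subunit Dbf4 were the 2 called lower. Dbf4 signals in the control line were 1134.8 before treatment, 1133.8 and 1027.7 after 4 and 12 h at pH 7.4, and 430.7 and 853 after 4 and 12 h at pH 6.4. In the TDAG8 line Dbf4 read 1186.1, 1101.7, 890.9, 436.2 and 692.8 in that order. The pair of arrays at pH 6.4 and 4 h lay below all the others and within 5.5 signal units of each other. Dbf4 was 1.35 lower than at pH 7.4, written as -1.35 (SE 0.13, a 2.55-fold difference, limma adjusted p = 0.00327), and at 12 h the difference was -0.38 (SE 0.13) and did not pass (adjusted p = 0.0681). For Cdc7 the control line read 178.2, 167.7, 127.6, 94.5 and 205 and the TDAG8 line 146.9, 153.2, 112.4, 87.3 and 204.2. Its lowest signals were thus at pH 6.4 after 4 h and its highest at pH 6.4 after 12 h, in both lines. Cdc7 went from -0.67 at 4 h (SE 0.10) to 0.77 at 12 h (SE 0.10), a change of 1.44 (SE 0.15, adjusted p = 0.0155) that was the largest in the list.

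Polymerases and primase were called at 12 h about as often as all genes, of which 17% were called higher and 17.7% lower. At 12 h 1 of 6 was called higher at pH 6.4, Pola2, the accessory subunit of polymerase alpha (0.51, SE 0.15, limma adjusted p = 0.0415). Pole2, the second subunit of polymerase epsilon, was the 1 called lower (-0.45, SE 0.10, limma adjusted p = 0.0188). Both calls depended on the setting. Pola2 lost its call with no filter (adjusted p = 0.0925), with the probe sets of each gene averaged (0.17, adjusted p = 0.61) and without the TDAG8 array at pH 6.4 (0.30, adjusted p = 0.163), the TDAG8 array at pH 7.4 (0.39, adjusted p = 0.207) or the control array at pH 7.4 (0.63, adjusted p = 0.078), all at 12 h. Pole2 lost its call with arrays centred on their medians (-0.30, adjusted p = 0.139), with no filter (adjusted p = 0.0556), with probe sets averaged (-0.17, adjusted p = 0.428) and without any 1 of the 12 h arrays other than the TDAG8 array at pH 6.4. The median of the 6 was -0.06. Pole2 signals were 610.8, 537.8, 425.9, 411.5 and 293.5 in the control line (before treatment, pH 7.4 at 4 and 12 h, pH 6.4 at 4 and 12 h) and 492.7, 482.1, 356.5, 392.7 and 284.8 in the TDAG8 line. Before treatment each line was at its highest and after 12 h at pH 6.4 at its lowest. A second Pole2 probe set with a mean signal of 7.63 differed by 0.11 in the other direction at 12 h. In the contrast with before treatment at pH 6.4 and 12 h, 4 of the 6 were called lower, as were 15.6% of all genes. They were Pole2 (-0.95, SE 0.10), the large primase subunit Prim2 (-0.83, SE 0.18), the catalytic subunit of polymerase epsilon Pole (-0.72, SE 0.09) and that of polymerase alpha Pola1 (-0.67, SE 0.10).

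Among the clamp, clamp loader, ligation and single-strand binding genes 4 of 9 were called higher at pH 6.4 after 12 h and 1 was called lower. The shares over all genes were 17% and 17.7%. Fen1, the nuclease that trims Okazaki fragments, read 664.3, 556.1, 346.7, 510.8 and 766.3 in the control line and 506.1, 487, 293.7, 526.9 and 599.2 in the TDAG8 line, in the order used for Pole2. Fen1 differed by 0.00 at 4 h (SE 0.12) and 1.06 at 12 h (SE 0.12, 2.09-fold, limma adjusted p = 0.00215). Lig1, the ligase that seals the fragments, was higher at both times, by 0.47 at 4 h (SE 0.09) and 0.87 at 12 h (SE 0.09). Rpa2, a subunit of the single-strand binding protein, was 1.01 higher at 12 h (SE 0.11), and Rpa1 of the same complex had 0.28 (SE 0.13), which did not pass. Pcna, the clamp itself, had 0.20 (SE 0.09, adjusted p = 0.126) and signals from 2922.9 to 4753.6 over the 10 arrays.

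The clamp loader subunits Rfc3 and Rfc5 went opposite ways. Rfc3 was higher at pH 6.4 by 0.62 at 4 h (SE 0.14) and 1.01 at 12 h (SE 0.14), and read 181.2, 177.7, 165.1, 259.9 and 280.9 in the control line and 162.7, 149.8, 108.3, 212.3 and 266.5 in the TDAG8 line. All 4 of its pH 6.4 signals were above the other 6. Rfc5 differed by 0.04 at 4 h and -0.58 at 12 h (SE 0.09, limma adjusted p = 0.00509), with control line signals of 408.8, 378.9, 304.6, 387.9 and 197 and TDAG8 line signals of 384.3, 354.1, 261.7, 338.7 and 185.1. Its 2 lowest signals were at pH 6.4 after 12 h, and there it was also -1.07 from before treatment (SE 0.09), the largest fall of the list in that contrast. Rfc2 and Rfc4 did not pass at either time.

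**Figure D3:**
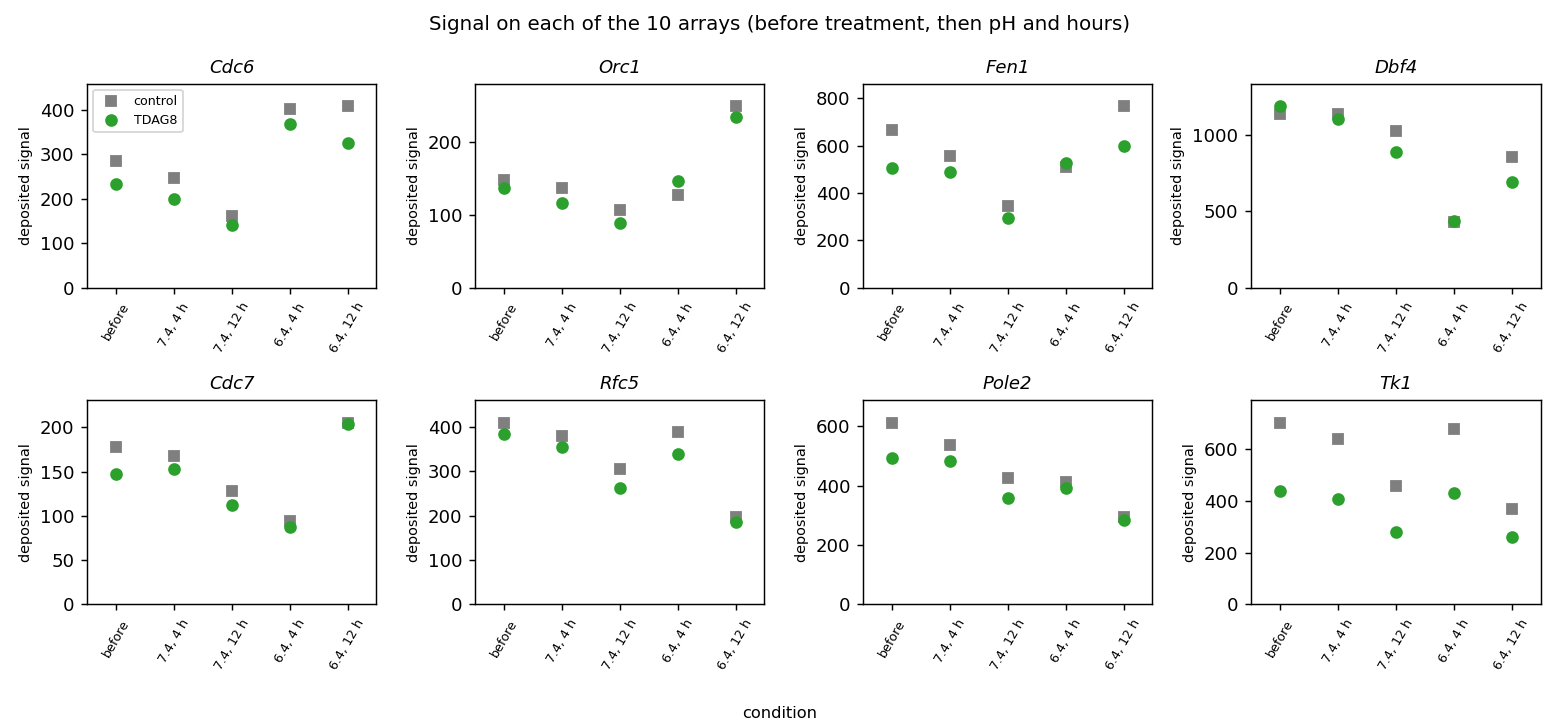
Deposited signal (y axis, linear, from 0) of 8 genes on each of the 10 arrays, by condition (x axis: before treatment, then pH and hours), with grey squares for the control line and green circles for the TDAG8 line. Cdc6 is highest on the 4 pH 6.4 arrays, Orc1 is highest at pH 6.4 and 12 h (249.6 and 234.5), Dbf4 is lowest at pH 6.4 and 4 h (430.7 and 436.2), and Tk1 is lower in the TDAG8 line in every condition.

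In the remaining groups few genes passed at 12 h, near the 17% of all genes that were called higher. Of the 4 nucleotide supply genes Rrm1, the large subunit of ribonucleotide reductase, was higher (0.61, SE 0.12, limma adjusted p = 0.0129), while Rrm2 (0.27), Tyms (0.31) and Tk1 (-0.23) did not pass. Tyms had a mean signal of 22.5, the lowest of the list, and a second probe set of it (mean signal 15.2) differed by -0.44. Of the 5 G1/S regulators Ccne1, cyclin E1, was higher (0.58, SE 0.11, adjusted p = 0.00862). Ccnd1, cyclin D1, had an estimate of 0.78 (SE 0.24, adjusted p = 0.0522), with 1.24 in the control line and 0.32 in the TDAG8 line. Ccne2 (0.52), Tcf19 (0.32) and E2f1 (-0.12) did not pass, nor did the methylation reader Uhrf1 (0.08) or the chromatin assembly subunit Chaf1b (0.54). Another E2f1 probe set (mean signal 71.2) differed by 0.09. Among 31 genes with more than 1 usable probe set, E2f1, Pole2 and Tyms were those where the pH difference at 12 h differed in sign.

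At 4 h the pH difference was narrower. limma called 4 genes higher and 2 lower of the 44, where 17.8% of all genes were called, 6.27% higher and 11.6% lower, so the list was near the background. The higher genes were Cdc6, Rfc3, Lig1 and Gins2 (0.58, SE 0.12), and the lower ones Dbf4 and Cdc7. The median of the list was 0.08 against 0.01 over all genes. Leaving out any 1 of the 4 arrays of this comparison left 2 calls, and with median centring 2 genes were called higher and 2 lower. Trend and robust moderation raised the count. Averaged over both times (4 matched pairs, 3 residual degrees of freedom) 4 genes were called higher, Cdc6 by 1.05 (SE 0.14), Rfc3 by 0.82 (SE 0.15), Lig1 by 0.67 (SE 0.14) and Gins2 by 0.51 (SE 0.11), and 0 lower, with 10.2% of all genes called (4.51% higher, 5.65% lower). Of the 44 estimates 38 were above 0, with a median of 0.28. This averaged count fell to 1 with median centring, to 0 with no filter and to 0 or 1 when a matched pair was left out.

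The difference between the 2 times was tested directly. In 11 of the 44 genes the pH difference at 12 h departed from that at 4 h (limma, adjusted p under 0.05), 10 upward and 1 downward, where 12.2% of all genes were called, 6.62% upward and 5.54% downward, so the upward share was above the background. Besides Cdc7, the upward changes were those of Fen1 (1.06), Orc1 (1.06), Dbf4 (0.97), Orc6 (0.83), Cdt1 (0.79), Rpa2 (0.66), Ccne1 (0.61), Mcm4 (0.61) and Mcm5 (0.56), and the downward one that of Rfc5 (-0.62). A second Mcm4 probe set (mean signal 1078.37) differed by 0.46 at 4 h and 0.34 at 12 h, so its change went the other way. In each of the 11 the change had the same sign in both lines, which is no separate support, since the same 2 lines gave the calls. Their adjusted p-values lay between 0.0155 and 0.0494. The count was 0 with no filter, 6 when the probe sets of each gene were averaged, and 0 to 3 when any 1 of the 8 treated arrays was left out. Median centring moved the median change of all genes from 0.04 to 0.20 and that of the list from 0.30 to 0.43, and with it Rfc5 was no longer among the calls.

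**Figure D4:**
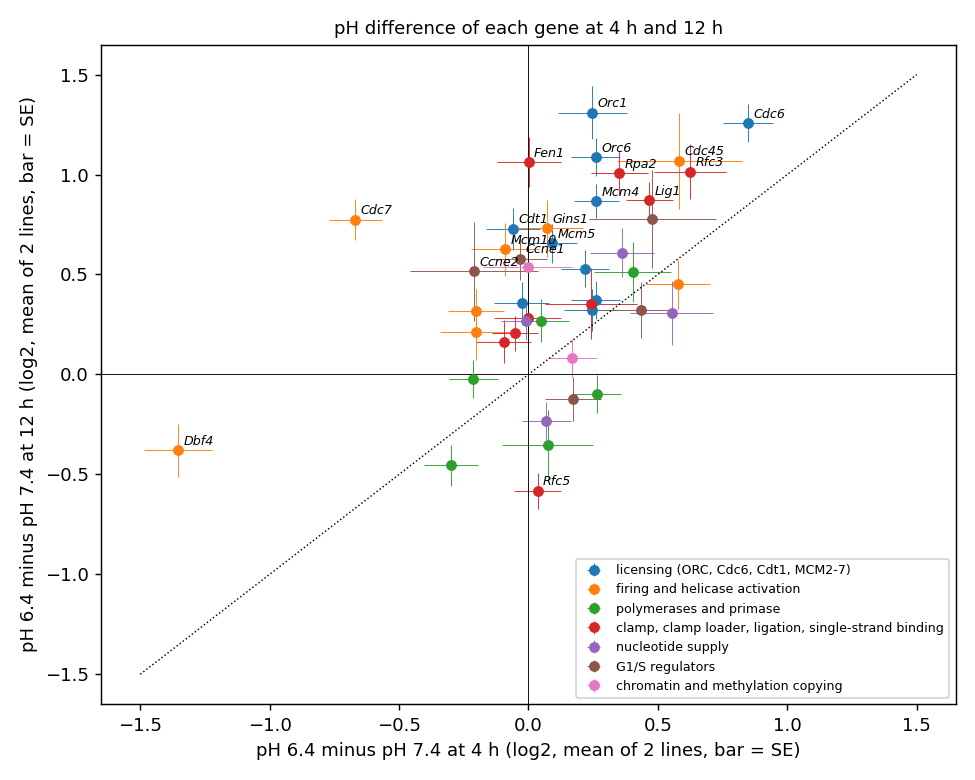
pH 6.4 minus pH 7.4 difference (log2, mean of the 2 lines) of each of the 44 genes at 4 h (x axis) and at 12 h (y axis), with bars of 1 SE and colours for the roles. The dotted line marks equal differences. Orc1, Fen1 and Cdc7 lie well above it (Cdc7 at -0.67 and 0.77), Rfc5 lies below it, and Dbf4 is at the far left at -1.35.

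Against before treatment, the list went both ways at pH 6.4. These contrasts came from the same fit and were added after seeing the data, and they share the arrays before treatment with the pH 7.4 contrasts. After 12 h at pH 6.4, limma called 5 genes higher and 10 lower, where 29.9% of all genes were called, 14.3% higher and 15.6% lower, again near the background. The higher genes were Orc1 (0.75, SE 0.13), Rfc3 (0.66, SE 0.14), Orc6 (0.53, SE 0.10), Cdc6 (0.48, SE 0.10) and Rpa2 (0.42, SE 0.11). Besides Rfc5 and the 4 polymerase and primase genes, those that fell were Tk1 (-0.86, SE 0.09), Dbf4 (-0.64, SE 0.13), Gins3 (-0.54, SE 0.11), E2f1 (-0.50, SE 0.11) and Uhrf1 (-0.45, SE 0.09). Leaving out 1 array gave 5 to 11 calls, and 4 of the 15, Pole, Pole2, Rfc5 and Tk1, held under every alternative setting run. After 4 h at pH 6.4, 2 genes were called higher, Cdc6 (0.63) and Rfc3 (0.56), with 16% of all genes called (5.39% higher, 10.6% lower). The 4 called lower were Dbf4 (-1.42), Cdc7 (-0.67), Gins3 (-0.44) and Pole2 (-0.40). There median centring left 0 higher and 3 lower, and leaving out 1 array 1 or 2 calls.

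Between the lines, most of the list was slightly lower in the TDAG8 line. Over 5 matched pairs of arrays blocked by condition, which left 4 residual degrees of freedom, 38 of the 44 estimates of TDAG8 minus control were below 0, with a median of -0.20 against -0.00 over all genes. In 26 genes the TDAG8 value was lower in all 5 pairs, as in 11.8% of all genes tested. limma called 1 gene, Tk1, with 1.23% of all genes called (0.691% higher, 0.535% lower). At an unadjusted p under 0.05, 25 genes were lower, a count for which the share of all genes is not given here. Tk1, the thymidine kinase that salvages thymidine for DNA synthesis, read 699.7, 637.3, 457.5, 674.2 and 366.1 in the control line and 438.8, 406.6, 277.2, 428.1 and 260.1 in the TDAG8 line (before treatment, pH 7.4 at 4 and 12 h, pH 6.4 at 4 and 12 h). It was lower in the TDAG8 line in every condition, by -0.73 to -0.52 over the 5 pairs. Its mean difference was -0.64 (SE 0.06, adjusted p = 0.0212), and the call was lost with no filter, with no block and when any pair other than that at pH 6.4 and 12 h was left out.

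The next estimates in size that were lower in all 5 pairs, none passing, were Mcm10 (-0.40, SE 0.08), Gins3 (-0.33, SE 0.07), Cdt1 (-0.31, SE 0.07) and Prim1, the catalytic primase subunit (-0.31, SE 0.07). With the probe set used for each gene, the licensing, firing and clamp groups held no estimate above 0, and all 10, 8 and 9 of their genes were below it. Other usable probe sets of Mcm4 (0.16), Cdc45 (0.77, mean signal 10.33) and Mcm10 (0.16, mean signal 12.03) were above 0. The rest of those in these groups were below it. The 6 estimates above 0 were those of E2f1 (0.16), Ccne2 (0.15), Ccne1 (0.05), Ccnd1 (0.02), Pola2 (0.02) and Rrm2 (0.00), so that 4 of the 5 G1/S regulators were among them. Another Ccnd1 probe set (mean signal 683.18) had -0.23 and another of Rrm2 (mean signal 1404.49) had -0.16. A further usable probe set of each was above 0 (0.03 and 0.01). The list's median was below 0 in each pair, from -0.24 to -0.13. The summed epithelial markers, mostly Krt8, were higher in the TDAG8 line over the same arrays, and the part of that shift was not tested. With a filter at the 60th percentile limma called 8 genes, and with trend and robust moderation 14. The shares of all genes called under these settings are not given here.

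No gene of the list gave a difference between the lines in its response to pH. limma called 0 of 44, with 0 at an unadjusted p under 0.05, 0% of all genes called and 0 calls in the list under each alternative run (2 residual degrees of freedom). This does not show that the lines responded alike, since the 95% intervals were wide. For Cdc6 the interval of the difference ran from -0.85 to 0.86 and for Orc1 from -1.15 to 1.73. The outermost estimates were those of Ccnd1 (-0.67, interval -1.49 to 0.15) and Ccne2 (0.58, interval -0.65 to 1.80). Ccnd1 read 1574 in the control line and 966.4 in the TDAG8 line at pH 6.4 after 12 h, and 637.7 and 774.4 at pH 7.4. Ccne2, cyclin E2, read 353.7 and 633.8 at pH 6.4 after 12 h, and 349.2 and 308.2 at pH 7.4.

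The comparison of 12 h with 4 h over both pH values also called 0 genes in limma (lowest adjusted p 0.423, 0% of all genes called, 0 under each alternative). There 17 genes had an unadjusted p under 0.05 in the lower direction, with no share of all genes given here. Of the 44 estimates 39 were below 0, with a median of -0.27 against 0.02 over all genes. In 23 genes the 12 h value was lower in all 4 matched pairs, as in 11.6% of all genes. The polymerase and primase group was the one in which all 6 genes were lower in every pair, with a median of -0.54. The largest estimates were those of Prim2 (-0.76, SE 0.16), Rfc5 (-0.68, SE 0.17), Tk1 (-0.67, SE 0.12) and Tcf19 (-0.62, SE 0.10).

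Genes of the same pathway outside the list were read from the same fit. Counts here are of genes called. Of all genes 17% were called higher and 17.7% lower at 12 h, and 6.27% higher and 11.6% lower at 4 h. Of 31 further replication, licensing and checkpoint genes 17 were higher at pH 6.4 after 12 h and 1 was lower (Topbp1, -0.35), with a median of 0.42. The largest were Atad5, which unloads the clamp (1.32, SE 0.15), the origin recognition subunits Orc5 (1.29, SE 0.11) and Orc4 (0.95, SE 0.11), and Dtl, a substrate receptor that targets Cdt1 for degradation (1.22, SE 0.11). At 4 h 1 of the 31 was higher (Pold1, 0.38) and 4 were lower, among them Mcm9 (-1.35, SE 0.19), near the shares of all genes. Of 11 further nucleotide supply genes 3 were higher at 12 h, Dctpp1 (0.89), Cad (0.50) and Dut (0.49), and 2 lower, Shmt2 (-0.94) and Samhd1 (-0.34). Of 10 replication-coupled chromatin genes 3 were higher, Cdca7 (1.09), Hat1 (0.62) and Slbp (0.40).

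The regulators upstream of replication were mixed. Counts here are of genes called. Of all genes 6.27% were called higher and 11.6% lower at 4 h. At 12 h 17% were called higher and 17.7% lower, and the E2F and Rb family was near these shares. In the E2F and Rb family 8 of 15 genes were lower at pH 6.4 after 4 h and none higher, with the largest estimates in Lin54 (-1.07, SE 0.16), E2f8 (-0.99, SE 0.14), Rbl1 (-0.91, SE 0.10) and E2f3 (-0.87, SE 0.19), and at 12 h 2 were higher, E2f5 (0.57) and E2f7 (0.54), and 2 lower, Tfdp2 (-1.33) and Rbl1 (-0.48). Among 11 other G1/S cyclins, kinases and phosphatases 5 were higher at 12 h and 2 lower. The largest were Cdc25a, the phosphatase that activates Cdk2 (1.86, SE 0.11, limma adjusted p = 0.00076), and Myc (1.40, SE 0.11). Cdc25a read 306.7 at pH 6.4 and 91.8 at pH 7.4 in the control line after 12 h, and 324.8 and 82.1 in the TDAG8 line. Of 4 inhibitors of cyclin-dependent kinases above the filter, Cdkn1a (p21) was higher at both times, by 1.27 at 4 h (SE 0.17) and 1.41 at 12 h (SE 0.17). Its signals were 179.7, 180.3, 153.9, 394.2 and 449.6 in the control line and 109.4, 126.1, 151.3, 308.8 and 366.8 in the TDAG8 line, all 4 at pH 6.4 above the other 6.

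Mitotic genes were read as a reference for cell cycle genes that act after S phase. Of 11 measured, 2 were called higher at pH 6.4 after 12 h, Aurkb (0.95, SE 0.09) and Cdk1 (0.33, SE 0.09), and 1 lower, Ccnb2 (-0.74, SE 0.15). Of all genes 17% were called higher and 17.7% lower there, so the number called higher was near the background. The median of the 11 was -0.16 where the replication list had 0.41. The difference between the lists was not tested. Mki67, a marker of cycling cells, had -0.56 (SE 0.20, limma adjusted p = 0.0768), with 1313.1 against 1497.7 in the control line and 755.8 against 1363.2 in the TDAG8 line. After 12 h at pH 7.4 the mitotic median was -0.31 from before treatment, with all 11 estimates below 0. None was called, where 0.0576% of all genes were. After 12 h at pH 6.4 the mitotic median was -0.46, with Plk1 (-0.95, SE 0.18) and Ccnb2 (-0.84, SE 0.15) called lower and Aurkb (0.40, SE 0.09) higher. Of all genes 14.3% were called higher and 15.6% lower in that contrast.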

How the data were processed

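RNA from 10 samples, 1 per line and condition, was hybridised to Affymetrix Mouse Genome 430 2.0 arrays. The deposited values are linear signal intensity per probe set. Which program summarised the probes is not given in the sources used here. In the deposited intensity table each array had a 2% trimmed mean of 100, so the arrays had been scaled, and array medians ran from 11.7 to 13.8. Of 45101 probe sets, 34945 had 1 gene symbol in the platform annotation, 932 several and 9160 none, and 64 were controls. Only those with 1 symbol were used.

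Array medians spanned 0.20 on the log2 scale, so arrays were quantile normalised. Values were log2(intensity + 2.4), 2.4 being the 20th percentile. The brightest probe set on average stood for each gene. A gene was tested if its mean reached the 40th percentile of all probe sets (log2 3.17). limma 3.58.1 in R 4.3.3 (lmFit, eBayes, Benjamini-Hochberg over 12160 genes, adjusted p under 0.05) was used, and it was tested on simulated data. Pairs or lines stand in for replicates, so p-values reflect only how these arrays spread, and their number limits precision. Figures and sequences were handled with Python 3.11.15 and matplotlib 3.10.9.

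The members, the lists and the naming rule (all members that pass, up to 4 by size where fewer than 4 do, up to 4 per other list) were chosen with earlier results of these data known. Alternatives were median centring, no filter, a 60th percentile filter, the mean of all probe sets, trend and robust moderation, a pseudocount of 7.7, leaving out pairs or arrays, no block, and pH by time in the model.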

Additional observations from a re-analysis of the deposited data

Results flagged for a closer look

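For 11 genes the response to pH differed between the time points in limma's test of that difference (12 h minus 4 h, log2, mean of the 2 lines). The change was 1.44 for Cdc7, 1.06 for Fen1, 1.06 for Orc1, 0.97 for Dbf4, 0.83 for Orc6, 0.79 for Cdt1, 0.66 for Rpa2, 0.61 for Ccne1, 0.61 for Mcm4, 0.56 for Mcm5 and -0.62 for Rfc5. For Cdc7 the response changed sign, and for Dbf4 it was less negative at 12 h. For Mcm4 a second probe set changed the other way, from 0.46 at 4 h to 0.34 at 12 h. No group had the 4 arrays that a search for stray samples needs.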

How the results depend on the processing

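No call of a single gene reversed under any alternative run: of 66 calls over the comparisons, 16 held under every one, and over all settings 456 checks kept the call and 254 lost it. The counts of genes called that moved past 1.5 times were these. With no filter the calls were 0 for line, 0 for pH over both times, 3 for pH at 4 h, 0 for the change between times and 3 for 4 h at pH 6.4 against before treatment. With the 60th percentile filter they were 8 for line, 8 for pH and 21 for 12 h at pH 7.4 against before treatment. With trend and robust moderation they were 14 for line, 13 for pH, 12 for pH at 4 h and 29 for 12 h at pH 7.4 against before treatment. Median centring gave 1 for pH and 3 for 4 h at pH 6.4 against before treatment, the mean of all probe sets 6 for the change between times, no block 0 for line, and pH by time in the model 18 for pH. Leaving out 1 pair or array gave 0 to 1 for line, 0 to 1 for pH, 2 for pH at 4 h, 12 to 22 for pH at 12 h, 0 to 3 for the change between times, 0 for 12 h at pH 7.4 against before treatment, 1 to 2 for 4 h and 5 to 11 for 12 h at pH 6.4 against before treatment. The count for pH at 12 h stayed between 18 and 31 under the other alternatives. The shares of all genes called under these alternatives are not set beside the counts here. The cause of these shifts was not tested. The labels give no replicate numbers, so none served as a block, and arrays were matched by condition. With 1 array per group, differences rest on matched arrays alone.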

Other observations

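Several genes of the other lists also had a different response to pH at 12 h than at 4 h (limma, same fit and threshold, log2 change of the difference). In the E2F and Rb family 4 of 15 changed upward and 0 downward: the atypical repressors E2f8 (1.39, SE 0.20) and E2f7 (1.30, SE 0.15), the DREAM complex subunit Lin54 (1.11, SE 0.22) and the pocket protein Rbl2 (0.99, SE 0.16). Among the 31 further replication, licensing and checkpoint genes 12 changed upward and 0 downward, led by Atad5 (1.73, SE 0.21), Pold3 (1.37, SE 0.18), Orc5 (1.18, SE 0.16) and Dtl (1.10, SE 0.15). Atad5 read 86.3 and 74.2 in the control and TDAG8 lines after 4 h at pH 6.4 and 243.1 and 245.3 after 12 h, where it had read 143 and 130.2 before treatment. Hells (1.07), Cdca7 (0.73) and Hat1 (0.70) changed upward among 10 replication-coupled chromatin genes, and Cdc25a (0.95) and Skp2 (0.84) among 11 further G1/S genes. Over all genes 12.2% changed, 6.62% upward and 5.54% downward.

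Between the lines, Cdkn2c, an inhibitor of Cdk4 and Cdk6, was the gene of the other lists that passed, at 0.46 higher in the TDAG8 line (SE 0.07, limma adjusted p = 0.0455). After 12 h at pH 6.4, Rrm2b, the p53-inducible subunit of ribonucleotide reductase, was 0.95 above its level before treatment (SE 0.14) and Cdkn1a 1.53 above (SE 0.17), in the contrast added after seeing the data.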
